A study of Danio rerio with 2 samples.

Results

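Endothelial cells line blood and lymphatic vessels, and 6 zebrafish genes that mark them were followed in pigment cell preparations from adult fins. The genes were kdrl, plvapb, fli1, fli1rs, tie1 and lyve1a, taken as every probe set of the expression array whose single annotated gene symbol is one of these names. The array names 8793 genes in this way, and the rule gave 6 of these genes and 7 of the 15502 probe sets that measure transcripts, with 2 for fli1 and 1 for each of the other 5 genes. A further probe set annotated to both dda1 and plvapb was left out because it carries more than one symbol. No sequence of these genes was used here.

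The study hybridised 2 Affymetrix zebrafish arrays, 1 for melanophores (black pigment cells) and 1 for xanthophores (yellow pigment cells). Both samples were wild type, from caudal and anal fins of fish older than 2 months. The labels' protocols describe 1000 pet shop fish, digestion in trypsin at 2.5 mg per ml followed by collagenase, and total RNA from the isolated cells. The cells were separated by centrifugation or by a cell sorter, and which method gave which sample is not stated in the labels used here. In each sample the title gives one pigment cell type, and the source name and the cell type field give the other. Each array is therefore named by its title (melanophore-titled and xanthophore-titled in ratios), and every direction is one between titles. With 1 array per preparation no difference has a replicate check, and no test or p-value is given. The number of arrays limits the precision.

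Vessel growth and upkeep run through receptor tyrosine kinases on the endothelial surface. VEGF binds receptors of the Kdr and Flt family, of which kdrl is the one used most widely as a zebrafish vascular marker, and angiopoietins bind the related Tie receptors. Inside the cell, ETS factors such as Fli1 switch on many endothelial genes. Fli1 is also made in blood lineages and in some neural crest derivatives, the embryonic source of pigment cells, so it is less restricted to vessels than kdrl. In mammals LYVE1 is a hyaluronan receptor of lymphatic vessels that some macrophages also carry. In zebrafish its paralogue lyve1b is the usual lymphatic marker.

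Signals are MAS 5.0 intensities on a linear scale. A signal below its array's median (47.2 for the array titled melanophores and 43.5 for the array titled xanthophores) was raised to that median, called the floor, before a ratio was taken, and a ratio against a floored signal is a lower bound. A probe set counted as measured if the brighter of its signals was at or over its own array median. The error given beside a fold is technical: bright probe sets of 1 gene differed in log2 ratio with an SD of 0.38 (201 genes), a factor of 1.30. This SD was used for every range. Dimmer measured probe sets, among them the brighter one of fli1, gave an SD of 0.40 (178 genes), a factor of 1.32. Both SDs were taken on floored ratios, and signals held at the floor can make the spread of dim probe sets too narrow. Neither SD includes the spread between fish and between preparations, or differences between the arrays in labelling, hybridisation and scanning.

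Of the endothelial receptor kinases, kdrl was 4.34-fold brighter on the array titled melanophores, while tie1 was too dim for more than a bound. The probe set for kdrl read 1098 on the array titled melanophores and 253 on the array titled xanthophores. Both signals stood well over the floor, and the ratio was 4.34-fold, or 3.33-fold to 5.66-fold within 1 SD of the technical spread. The probe set for tie1, an orphan receptor that modulates signalling through its relative Tek, read 60.2 and 27.6. Only the first of these exceeded its floor, so tie1 was at least 1.38-fold brighter on the array titled melanophores, short of 2-fold. With bright probe sets set equal in median, tie1 gave 0.942-fold, a turn in direction set by the floor. Whether tie1 differed as much as kdrl could not be measured at this signal.

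Among structural and surface genes, plvapb and lyve1a showed the same direction. The gene plvapb encodes a protein of the diaphragms that span endothelial fenestrae and caveolae. Its probe set read 2052 on the array titled melanophores and 493 on the array titled xanthophores, a ratio of 4.17-fold (3.2-fold to 5.43-fold within 1 SD). The probe set for lyve1a read 499 on the array titled melanophores and 45.6 on the array titled xanthophores. The dimmer of these lies just over the floor, and the ratio was 10.9-fold (8.40-fold to 14.3-fold within 1 SD). With the floor raised to the 65th percentile of each array it became a bound of at least 5.34-fold.

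The ETS factor fli1 and its paralogue fli1rs, also known as fli1b, were also brighter on the array titled melanophores, fli1rs only as a bound. The brighter fli1 probe set read 192 on the array titled melanophores and 68.2 on the array titled xanthophores, or 2.82-fold (2.16-fold to 3.67-fold within 1 SD). The other fli1 probe set, annotated to the RefSeq mRNA of fli1, read 22.8 and 17.6. Both of its signals lay under the floor, so it gave no fold and does not check the first. The fli1rs probe set read 110 and 38, of which the second was under the floor, and fli1rs was at least 2.53-fold brighter on the array titled melanophores. Raised to the 65th percentile, the floor covered both fli1rs signals.

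**Figure D1:**
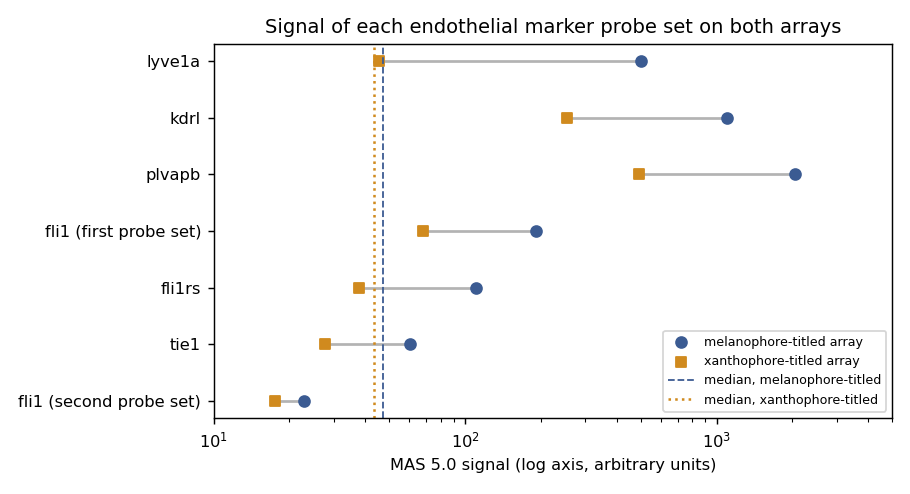
Deposited MAS 5.0 signal (log axis) of the 7 endothelial marker probe sets on the array titled melanophores (circles) and the array titled xanthophores (squares), with each array's median as a vertical line. All 7 circles lie to the right of their squares, the signals on the array titled xanthophores of fli1rs, tie1 and the second fli1 probe set lie under the floor, and that fli1 probe set is under the floor on both arrays.

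All 7 probe sets had the higher deposited signal on the array titled melanophores. The second fli1 probe set was under the floor on both arrays, so no direction is read from it. The share of all probe sets with this direction was not counted. The median log2 ratio of all measured probe sets was 0.37, also brighter on the array titled melanophores. There were 6 measured probe sets, and 5 of them reached 2-fold in that direction. No member was 2-fold brighter on the array titled xanthophores. Among all 8404 measured probe sets, 16.8% were 2-fold brighter on the array titled melanophores and 4.15% on the other. At 4-fold, with signals as deposited, the members were lyve1a, kdrl and plvapb, against 2.32% of all measured probe sets. The 6 genes were chosen with these ratios known, and fli1rs and tie1 were measured only through the array where they are bright, so the counts describe the members and are no support for a difference.

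The arrays differ in brightness, and part of every ratio is shared with other genes. The median log2 ratio was 1.78 over the 6 member genes and 0.36 over all 5501 measured genes. The 18 probe sets of the hybridisation spike-ins, added in fixed amounts, were also brighter on the array titled melanophores. Their median log2 ratio was 0.38 (0.18 to 0.97). They read a smaller number of spiked transcripts, so they are not 18 separate controls. Relative to the median of all measured probe sets, lyve1a stood 8.47-fold, kdrl 3.36-fold, plvapb 3.22-fold and fli1 2.18-fold higher on the array titled melanophores. With the spike-ins set equal, 7.43% of measured probe sets were 2-fold brighter on the array titled melanophores and 8.26% on the other. The members at 2-fold were then lyve1a, kdrl, plvapb and fli1, while fli1rs stood at a bound of at least 1.94-fold.

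The ratios of kdrl and plvapb could not be told apart. They differed by 0.06 on the log2 scale, where the technical SD of a difference between a pair of probe sets is 0.54. The log2 ratio of lyve1a exceeded that of kdrl by 1.33, or 2.47 times this SD. That gap rests on a lyve1a signal just over the floor, and with the floor at the 65th percentile it was a bound of at least 0.30, under the SD. The step from plvapb down to fli1 was 0.56, about the size of the SD, and fli1 and fli1rs differed by 0.15, where the value of fli1rs is a bound. Of the measured probe sets on the arrays, 28 had a higher log2 ratio than lyve1a, 160 a higher one than kdrl and 180 a higher one than plvapb. These counts are minimums, since a probe set under the floor on the array titled xanthophores was ranked by its lower bound. For tie1, 44.0% of measured probe sets had a higher log2 ratio than its bound.

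**Figure D2:**
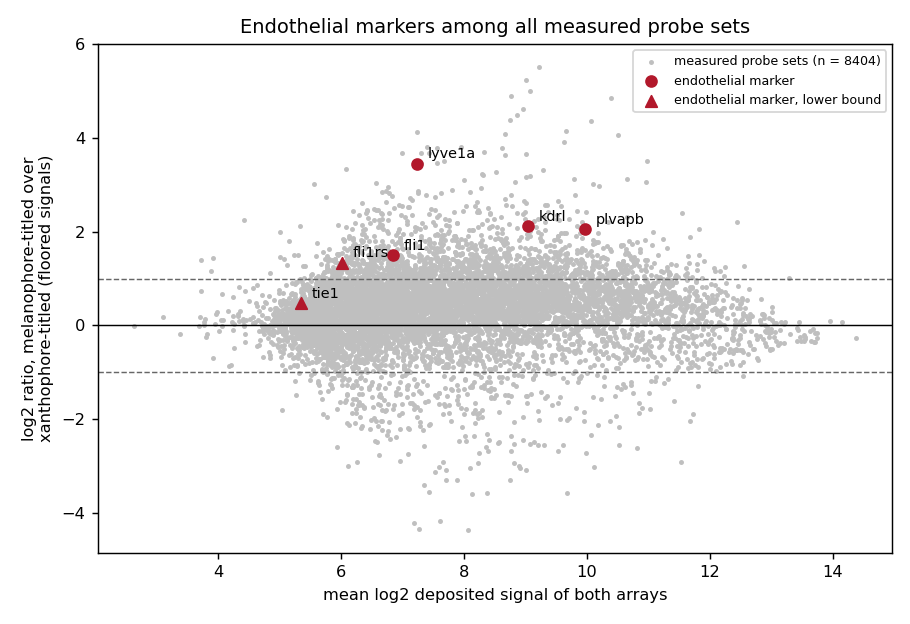
Log2 ratio of floored signals (melanophore-titled over xanthophore-titled) against the mean log2 deposited signal, for 8404 measured probe sets (grey) and the 6 measured endothelial marker probe sets (red, with triangles for lower bounds); dashed lines mark 2-fold. The markers kdrl, plvapb and lyve1a lie along the upper edge of the grey cloud and tie1 lies inside it.

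Other genes of vessels were counted, with floored signals, beside the share over all measured genes. The members were chosen with their ratios known, so a difference between these lists and the members is not read as a result. Of 96 genes on 4 vascular lists, 39 had a probe set under their single symbol and 25 were measured. At 2-fold or more, 5 of the 25 were brighter on the array titled melanophores, none on the array titled xanthophores, and 20 met neither. Among all measured genes 15.5% were 2-fold brighter on the array titled melanophores and 4.09% on the other, and the median log2 ratio was 0.33 for the 25 vascular genes against 0.36 for all. The count of the lists was thus near the background. The median of 0.33 is the ratio of efnb2a, itself a lower bound. With no floor the count was 7 of 25, with vegfc and fgd5a added, where 19.4% of measured probe sets were 2-fold brighter on the array titled melanophores. With the spike-ins set equal it was 2 of 25, where that share was 7.43%.

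In the VEGF and angiopoietin group, none of 4 measured genes reached 2-fold. The ligand vegfaa, which activates Kdrl, read 232 on the array titled melanophores and 238 on the array titled xanthophores, a ratio within the technical spread. The lymphangiogenic ligand vegfc read 51.2 and 24.4, at least 1.18-fold. The semaphorin and VEGF co-receptors nrp2b (51.5 and 51.7) and nrp1a (13.5 and 51.1) were near or under the floor. The Tie receptor tek (21.1 and 5.8), its ligands angpt1 (8.8 and 13.0) and angpt2b (20.3 and 9.9), the lymphatic VEGF receptor flt4 (39.2 and 8.2) and plcg1 (2.9 and 37.9), which acts downstream of the VEGF receptors, lay under the floor on both arrays. No direction was read from them.

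Among transcription factors, 2 of 11 measured genes were 2-fold brighter on the array titled melanophores. The ETS factor ets2, which many cell types make, read 2119 and 989, or 2.14-fold, and lmo2, a partner of Tal1 in blood and vessel progenitors, read 88.0 and 20.2, at least 2.02-fold. Neither reached 2-fold with the spike-ins set equal. The ETS factor ets1 stood at 217 against 139 (1.57-fold), hhex at 78.8 against 50.8, the venous factor nr2f2 at 92.5 against 60.7 and foxc1b at 80.2 against 43.4. These lay under 2-fold, the last as a bound. The flow-responsive factors klf2a (388 against 414) and klf2b (232 against 324), the ETS factor etv6 (247 against 361), gata2a (82.9 against 84.4) and mef2ca (46.8 against 57.4) had the higher signal as deposited on the array titled xanthophores, all by less than 2-fold. The endothelial ETS factor erg lay under the floor on both (42.1 and 41.6), as did foxc1a, tal1 and sox17.

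Among junction and surface genes, 3 of 10 measured genes were 2-fold brighter on the array titled melanophores. The chemokine receptor cxcr4a, found on growing vessels and on other migrating cells, read 638 and 108, or 5.89-fold. The water channel aqp1a.1, made in endothelium and red cells, read 433 and 78.8, or 5.50-fold. The ALK1-type receptor acvrl1, which restrains arterial growth, read 269 and 125, or 2.15-fold, and fell under 2-fold with the spike-ins set equal. The sphingosine receptor s1pr1 stood at 1883 against 1136 (1.66-fold) and its second probe set at 110 against 75.7. The phosphatase dusp5 stood at 1526 against 921, fgd5a at 83.1 against 20.1 (at least 1.91-fold) and the arterial ligand efnb2a at 54.8 against 34.7. The apelin receptor aplnra (115 against 130) and the brightest probe set of the caveolar coat gene cav1 (7639 against 7593) differed by less than the technical spread. The probe sets of cav1 disagreed, since another read 1701 and 842. The Notch target hey2 read 15.4 and 46.0, and its ratio was set by the floor.

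**Figure D3:**
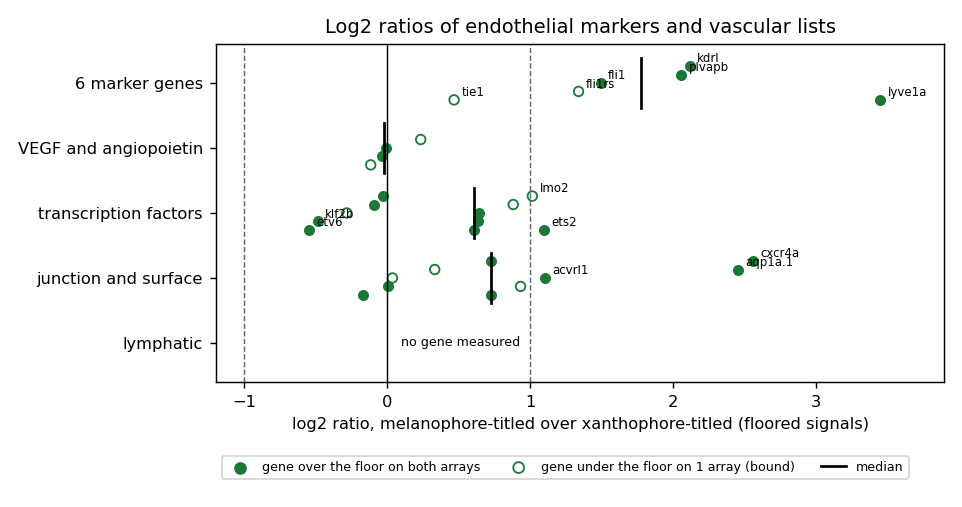
Log2 ratios (melanophore-titled over xanthophore-titled, floored signals) of the 6 endothelial marker genes and of the measured genes of 4 vascular lists, with the median of each as a black bar, bounds as open circles and 2-fold as dashed lines. The junction genes cxcr4a and aqp1a.1 lie beside kdrl and plvapb, most other vascular genes lie between the lines, and no lymphatic list gene was measured.

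The split of the 6 genes into blood and lymphatic markers could not be checked, since no other defining marker had a signal over the floor. Of 8 blood endothelial markers, 6 had a probe set and 5 were measured, all 5 of them members. The sixth, tek, was under the floor on both arrays, and cdh5 and pecam1a had no probe set under a single symbol. Of 7 lymphatic markers, 4 had a probe set and lyve1a alone was measured. The lymphatic fate regulator prox1a (2.4 and 9.4), the scavenger receptor mrc1a (5.7 and 8.9) and flt4 were under the floor on both arrays. The lymphatic name of lyve1a was therefore backed by no other lymphatic marker with a signal over the floor, and lyve1a is described here by its own ratio only. The blood endothelial name of the other members was likewise backed by no marker outside the members.

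Markers of other cell types moved in both directions beside the endothelial ones. In bulk RNA, fewer cells of a type and less RNA per cell cannot be told apart. Of 9 xanthophore markers, 6 were measured, 4 of them 2-fold brighter on the array titled melanophores. These were bco1 (32.3-fold), scarb1 (22.5-fold), gch2 (5.72-fold) and csf1ra (at least 2.73-fold). Of the others, pax7a was at least 1.99-fold brighter there and slc2a15b read 3444 and 4349. The list's summed signals were 9736 and 4708. The source name and cell type field of the array titled melanophores give xanthophores, and which label is right was not tested. Of 7 measured keratinocyte markers, 3 were 2-fold brighter on the array titled melanophores (summed signals over 8 genes 19733 and 15419). Of 9 measured connective tissue and bone markers, 8 were 2-fold brighter on the array titled xanthophores and 1, thy1, on the array titled melanophores. Of 4 measured melanophore markers, 1, the melanin enzyme gene dct, was 2-fold brighter on the array titled xanthophores (50.1 and 590). With the spike-ins set equal these 4 lists kept the same genes at 2-fold. With ribosomal protein genes set equal, pax7a, krt94 and mitfa were added on the array titled melanophores and postnb was lost on the other. Under that scaling 48.7% of measured probe sets were 2-fold brighter on the array titled melanophores and 2.1% on the other. The part of these markers in the endothelial ratios was not tested.

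No measured mural or erythrocyte marker was 2-fold brighter on the array titled melanophores. Mural cells wrap vessels, and 5 mural markers were measured. The pericyte marker rgs5a read 109 and 451, and tagln 78.7 and 228, both 2-fold or more brighter on the array titled xanthophores. The others, acta2 (126 and 106), notch3 (53.9 and 57.9) and cd248a (42.4 and 81.8), did not reach 2-fold either way. The summed mural signal was 410 against 924, with rgs5a the largest part of the second sum. With the spike-ins set equal cd248a also reached 2-fold on the array titled xanthophores, where 8.26% of all measured probe sets did. The call for tagln was lost when ribosomal protein genes were set equal. Both measured erythrocyte markers of 8 with a probe set were brighter on the array titled xanthophores. The adult globin hbaa1 read 24.9 and 957, and hbae3 read 87.7 and 184, or 2.10-fold. The 2-fold call for hbae3 was also lost when ribosomal protein genes were set equal, and that for hbaa1 was kept. The summed signal of all 8 was 185 against 1304.

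Leukocytes, among which some macrophages carry LYVE1 in mammals, showed no common direction. Of 11 leukocyte markers with a probe set 6 were measured. The antigen presentation genes cd74a (285 and 117) and cd74b (202 and 72.6) were 2-fold brighter on the array titled melanophores and cxcr4b (40.9 and 114) on the other. With the spike-ins set equal 1 leukocyte gene, cd74b, was 2-fold brighter on the array titled melanophores and 3 on the other, and with ribosomal protein genes set equal 3 and 0. The summed signal of the 11 leukocyte genes was 963 against 904. The pan-leukocyte gene ptprc (14.0 and 41.9), the myeloid factor spi1b (24.4 and 20.8), the macrophage receptor marco (26.6 and 6.7), lcp1 (20.8 and 19.9) and mpx (29.8 and 18.1) were under the floor on both arrays. Of 4 thrombocyte markers with a probe set only thbs1b was measured, at 28.7 and 91.9. Under 2-fold as deposited, thbs1b was 2-fold brighter on the array titled xanthophores with the spike-ins set equal. No marker of these lists was listed at 0.

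**Figure D4:**
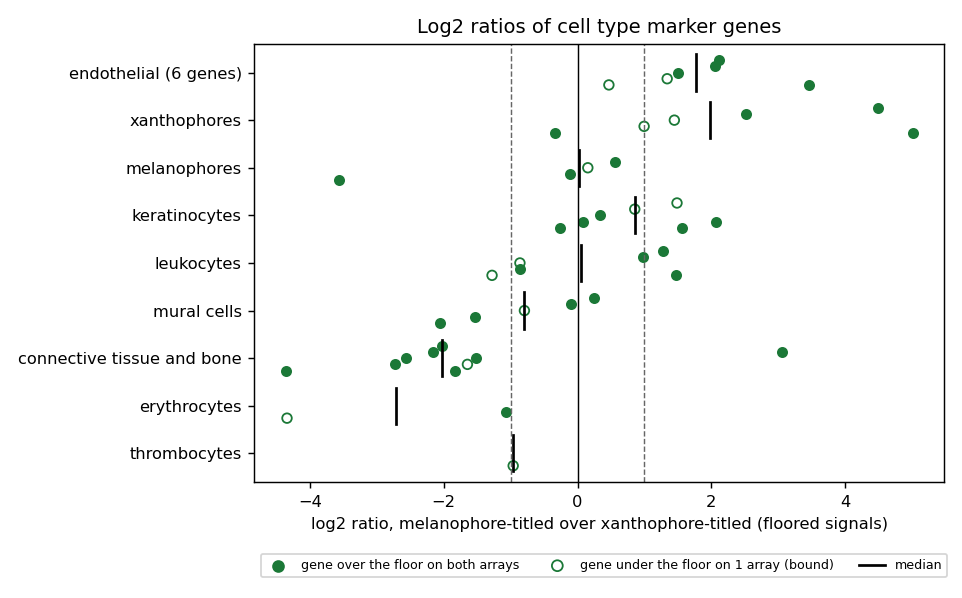
Log2 ratios (melanophore-titled over xanthophore-titled, floored signals) of measured marker genes for 9 cell types, with the median of each list as a black bar, bounds as open circles and 2-fold as dashed lines. The medians of endothelial and xanthophore markers lie at 1.78 and 1.98, that of leukocytes near 0, and those of mural, connective tissue and erythrocyte markers below 0.

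The 2-fold calls for lyve1a, kdrl and plvapb did not depend on the scaling or the floor, and those for fli1, fli1rs and tie1 did. Over the scalings and floors tried, the log2 ratio of kdrl ran from 1.56 to 2.71, that of plvapb from 1.5 to 2.65 and that of lyve1a from 2.42 to 4.04, the lowest value of lyve1a being a bound. For these 3 genes the array titled melanophores was the brighter one by at least 2-fold in every one of these settings. At 4-fold the call for lyve1a also held in every setting. Those for kdrl and plvapb were lost with quantile normalization, lowess, equal spike-ins or equal bright medians. In these scalings kdrl stood at 2.95-fold to 3.33-fold, and plvapb was lower than kdrl in each. Both signals of kdrl and plvapb exceeded every floor tried, so no floor could change their ratios. The brighter fli1 probe set fell to 1.92-fold under equal medians of bright probe sets and kept 2-fold in the others. The call for fli1rs was lost under that scaling, under equal spike-ins and under a 65th percentile floor. For tie1 2-fold was reached when ribosomal protein genes were set equal, with a 25th percentile floor and with no floor. In these settings 48.7%, 19.4% and 19.4% of all measured probe sets were 2-fold brighter on the array titled melanophores.

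**Figure D5:**
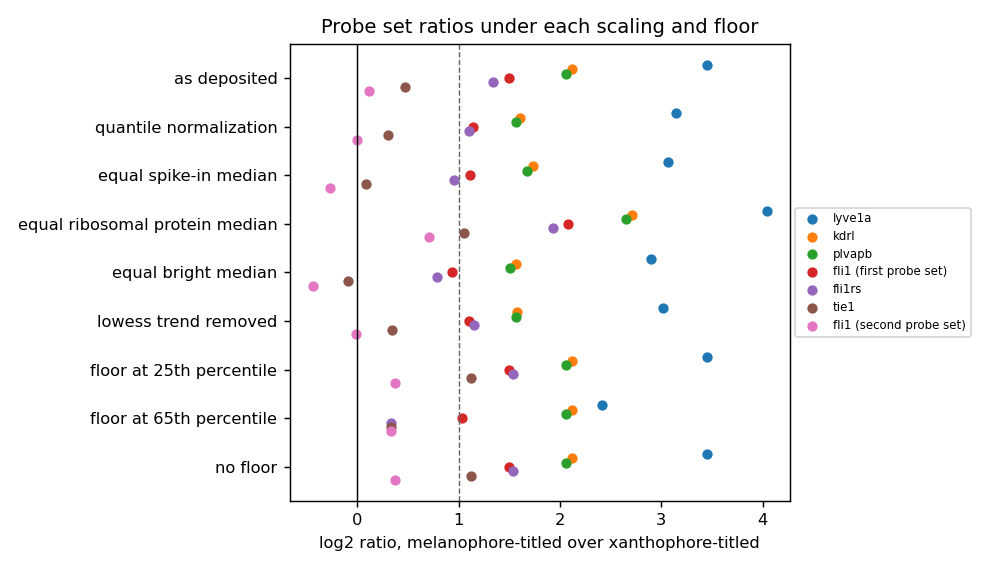
Log2 ratio (melanophore-titled over xanthophore-titled) of the 7 endothelial marker probe sets as deposited and under 8 other scalings and floors, with 2-fold as a dashed line. Points of lyve1a, kdrl and plvapb stay right of the dashed line in every row, while those of the brighter fli1 probe set, fli1rs and tie1 cross it.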

How the data were processed

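The authors deposited MAS 5.0 signal intensity for 15617 probe sets on 2 arrays, 115 of them controls. Per the labels' protocols, labelling, hybridisation, scanning and processing were Affymetrix's standard, done by an outside service; neither a scaling target nor detection calls were used here. The platform annotation gave the names, updated by NCBI gene ID against RefSeq (GRCz12tu): 10795 had 1 symbol, 135 several and 4572 none. In the gene lists a synonym was replaced by its RefSeq symbol.

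Signals were floored at each array's median before log2 ratios. Compared probe sets are those whose brighter signal is at least the 75th percentile (234 and 173). Each gene was represented by its probe set of highest mean log2 signal. All 6 members, every measured gene of the vascular lists and the 5 genes of nearest ratio are named, and marker genes as examples; the members and lists were chosen with earlier results of these data known. Alternatives were 5 scalings, 3 floors, 4-fold, no _x_at or _s_at probe sets, and the median over probe sets. The calculation was tested on simulated data. Python with numpy 2.4.6, pandas 2.3.3 and statsmodels 0.14.6 was used.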

Additional observations from a re-analysis of the deposited data

How the results depend on the processing

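No paired analysis was possible because each preparation has 1 array. For the same reason no sample could be left out. Equal spike-ins, equal ribosomal protein genes and equal bright medians each shift all log2 ratios by the same amount. Quantile normalization and lowess shift them by amounts that differ between probe sets. The median log2 ratio of all measured genes was 0.36 as deposited and 0.97 under equal ribosomal protein genes. It was between -0.19 and -0.00063 with quantile normalization, lowess, equal spike-ins or equal bright medians. The gap between the 6 genes' median and that of all genes ran from 1.21 to 1.42 over all settings. A shift shared by all ratios moves both medians together, so the scalings of that kind could hardly change this gap. The number of marker probe sets at 2-fold was 5 as deposited and 3 with equal bright medians, and 3 reached 4-fold as deposited. Of all measured probe sets, 16.8%, 5.1% and 2.32% reached the same threshold in these settings. The 6-gene median of 1.78 became 1.36 with quantile normalization, 1.36 with lowess, 1.22 with equal bright medians and 2.36 with equal ribosomal protein genes. The count of vascular list genes, 5 of 25 as deposited, was 2 with quantile normalization, equal spike-ins, lowess or equal bright medians. In these settings 5.1% to 7.43% of measured probe sets were 2-fold brighter on the array titled melanophores. At 4-fold the count was also 2, beside 2.32%. It was 12 of 24 with equal ribosomal protein genes, where 48.7% of measured probe sets were 2-fold brighter on the array titled melanophores and 2.1% on the other.

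Single log2 ratios that moved by more than the technical SD were as follows. Quantile normalization gave 1.61 for kdrl and 1.57 for plvapb. Lowess gave 3.02 for lyve1a, 1.1 for fli1, 1.58 for kdrl and 1.57 for plvapb. Equal bright medians gave 2.90 for lyve1a, 1.56 for kdrl, 1.5 for plvapb, 0.94 for fli1, 0.78 for fli1rs, -0.087 for tie1 and -0.44 for the dim fli1 probe set, the last a ratio of floors. Equal ribosomal protein genes gave 4.04 for lyve1a, 2.71 for kdrl, 2.65 for plvapb, 2.08 for fli1, 1.93 for fli1rs, 1.06 for tie1 and 0.71 for the dim fli1 probe set. The floor at the 65th percentile gave 2.42 for lyve1a, 1.04 for fli1 and 0.33 for fli1rs, the last a ratio of floors. For tie1 the floor at the 25th percentile gave 1.13, as did no floor. Of 87 values recomputed, 50 moved by less than the technical SD, or for counts by no more than 1.5 times. This count is no measure of stability, since some values could not move. Lower floors leave lyve1a, kdrl, plvapb and the brighter fli1 probe set as they were, and no member probe set is an _x_at or _s_at one. Equal spike-ins shift every log2 ratio by 0.3818, just under the SD of 0.3826. Dim signals limit tie1, fli1rs and the second fli1 probe set.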

Other observations

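With 2 arrays a gene has 1 ratio and no pattern over samples, so likeness to the members can be given only as nearness of that ratio. The 4 members over the floor on both arrays had a median of 4.25-fold. Of 2892 other compared genes over the floor on both arrays, 18 lay within 0.1 of it on the log2 scale. The 5 nearest were the annexin anxa3b (1194 against 280), the guidance receptor robo2 (304 against 71.2), the G protein subunit gnai2a (767 against 179), the folate enzyme fpgs (953 against 227) and the epithelial cadherin cdh1 (1949 against 464).

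In the RefSeq gene order, used here for neighbours only, fli1 lies beside ets1 and fli1rs beside the ETS gene etsrp (etv2). Of the 24 coding genes that are among the 2 nearest on either side of a member, 9 had a probe set under a single symbol and 2 were measured. These were ets1, at 1.57-fold, and ctr9 near lyve1a, at 277 against 211 (1.31-fold), both under 2-fold.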
